A study of Homo sapiens with 6 samples.

Results

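The 4 HOX gene clusters of the human genome were examined for sites of open chromatin called by ATAC-seq, an assay that tags accessible DNA with a transposase carrying sequencing adapters. Members were all called peaks that overlapped 4 windows of build hg19: HOXA on chromosome 7 from 27.13 to 27.26 Mb, HOXB on chromosome 17 from 46.60 to 46.81 Mb, HOXC on chromosome 12 from 54.33 to 54.45 Mb, and HOXD on chromosome 2 from 176.94 to 177.06 Mb. The 6 lists held 185 such peaks, which fell, once peaks sharing 1 bp or more were joined over the lists, into 42 regions of 58926 in the genome. HOXA had 19 of these regions, HOXB 10, HOXC 7 and HOXD 6. The windows were set by position and by no measured value, and hold the 38 listed genes from HOXA2 to HOXA13, HOXB1 to HOXB13, HOXC4 to HOXC13 and HOXD1 to HOXD13.

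HOX genes encode homeodomain transcription factors that give cells their position along the head-to-tail axis of the embryo. The genes of a cluster lie in the order in which they are used, so that those at one end act toward the head and those at the other end, such as HOXA13, HOXB13, HOXC13 and HOXD13, toward the tail. In differentiated cells the clusters are known for broad Polycomb-repressed and Trithorax-activated domains, and epithelia of the gut keep a subset of HOX genes active.

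The cells were HCT116, an established human colon cancer line. Libraries came from NuMA-depleted cells (n = 3) and wild-type cells (n = 3); NuMA is a nuclear matrix protein of interphase nuclei that also gathers microtubules at spindle poles. Titles mark the depleted samples AID and the wild-type samples NC, and the labels explain neither tag, nor how or for how long NuMA was removed, nor whether the depleted line was 1 clone. Nothing in the labels states that replicates were separate cultures, so a p-value below reflects no more than how far these libraries spread, and that spread may be technical.

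In the RefSeq gene table, which follows build GRCh38.p14 and was used here for names and neighbours alone, all 38 listed genes were found. With rising coordinate HOXA runs from HOXA2 to HOXA13 and HOXB from HOXB1 to HOXB13, whereas HOXC runs from HOXC13 down to HOXC4 and HOXD from HOXD13 down to HOXD1. In that order, low-coordinate sites of HOXA and HOXB lie at the head-acting end, and low-coordinate sites of HOXC and HOXD at the tail-acting end. An hg19 gene annotation was not used here, so no region below is assigned to a gene; each is named by its distance from the window start and its hg19 position.

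The HOX promoters at hand ranged from CpG-poor to CpG-rich, CpG content being the feature by which CpG islands are defined. RefSeq promoter sequences of GRCh38.p14 were found for a part of the 38 genes (26 promoters), nearly all in HOXA and HOXD, with HOXB1 and HOXC4 alone from the other clusters. HOXA3 and HOXA10 each had more than a single promoter, and each promoter counts separately in the median. The lowest CpG count, 0, was at a HOXA3 promoter. Over the 250 bases before the start site, the 26 promoters held a median of 19.5 CpG dinucleotides (quartiles 11 and 25.5), against 11 (quartiles 3 and 23) over 35116 promoters of all genes. The pair below sets a CpG-rich promoter beside a CpG-poor one. HOXA13 had the most CpG of the matched genes, and HOXD4 the fewest of those with a single listed promoter. Each is printed 5′ to 3′ on its own strand, in lower case with each CpG in capitals. HOXA13 (GRCh38.p14, minus strand, chr7:27200092-27200341) held 40 CpG and HOXD4 (GRCh38.p14, plus strand, chr2:176151300-176151549) held 4. The peaks are on hg19, so none can be placed against these bases here.
HOXA13: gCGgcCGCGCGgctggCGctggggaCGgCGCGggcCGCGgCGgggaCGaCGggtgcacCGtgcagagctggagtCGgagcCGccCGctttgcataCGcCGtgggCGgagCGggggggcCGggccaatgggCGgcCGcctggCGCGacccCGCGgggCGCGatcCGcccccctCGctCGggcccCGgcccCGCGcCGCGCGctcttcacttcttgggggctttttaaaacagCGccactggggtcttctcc
HOXD4: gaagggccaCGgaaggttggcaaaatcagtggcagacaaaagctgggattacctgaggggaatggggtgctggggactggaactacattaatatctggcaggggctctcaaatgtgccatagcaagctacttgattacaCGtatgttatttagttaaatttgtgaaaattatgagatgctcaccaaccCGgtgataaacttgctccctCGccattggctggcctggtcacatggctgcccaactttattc

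The 6 lists differed in size, with overlapping groups, and in depth, which was higher in each NuMA-depleted library than in each wild-type library. They held 21783 to 45892 peaks in the NuMA-depleted group, with replicate 3 the shortest and replicate 2 the longest, and 32503 to 38685 in the wild-type group. Relative depth, recovered from the deposited values and scaled to a mean of 1, ran from 1.07 to 1.21 in NuMA-depleted and from 0.762 to 0.975 in wild-type libraries. The smallest gap between neighbouring peaks of a list overlapped between the groups: it was 214, 265 and 224 bp in NuMA-depleted replicates 1, 2 and 3 and 204, 191 and 223 bp in wild-type replicates 1, 2 and 3. The windows took 29, 34 and 20 peaks in NuMA-depleted replicates 1, 2 and 3, and 34 in each wild-type replicate. As a share of the list this was 0.0754%, 0.0741% and 0.0918%, against 0.0958%, 0.0879% and 0.105%.

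**Figure D1:**
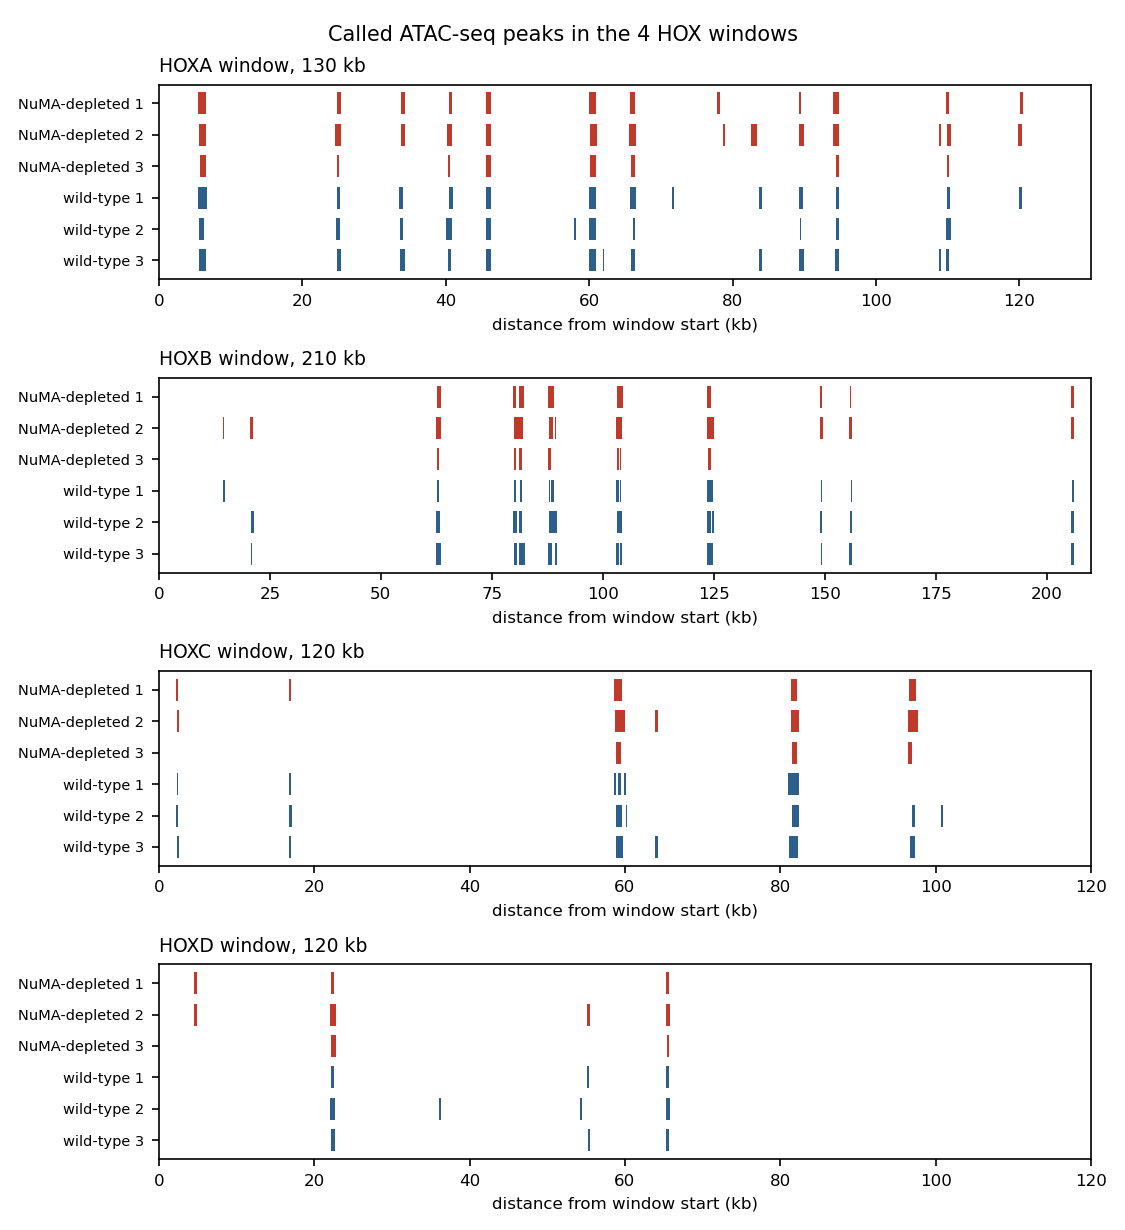
Each bar is a called peak, drawn to scale by its distance in kb from the start of the HOX window, with 1 row per library (red NuMA-depleted, blue wild-type). Of the 42 regions, 17 line up over all 6 rows. No stretch of HOXA that is empty in all 6 rows is longer than 18.0 kb, whereas single rows have longer empty stretches. HOXB holds its widest sites between 62.5 and 123.4 kb, and the last 54.2 kb of HOXD hold no peak in any library.

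The 4 clusters were open to different extents, in the order HOXA, HOXB, HOXC, HOXD. HOXA carried 9.1 ± 1.64 peaks per 100 kb (SD, n = 6 libraries), HOXB 5 ± 0.987, HOXC 4.44 ± 1.14 and HOXD 2.64 ± 0.627. Peaks covered 5.37 ± 1.4% of the HOXA window (SD, n = 6), 3.49 ± 1.09% of HOXB, 2.55 ± 0.692% of HOXC and 1.11 ± 0.334% of HOXD. HOXA thus exceeded HOXD in covered share by 4.26 percentage points.

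Within libraries, all 6 pairs of clusters differed in covered share. Each had p = 0.031 in an exact sign-flip permutation test of the 6 differences (two-sided, the smallest p that 6 libraries can give), and the same value after Benjamini-Hochberg adjustment over the 6 pairs. The smallest of these differences, HOXB minus HOXC, was 0.94 ± 0.446 percentage points (SD, n = 6), higher in HOXB in 6 of 6 libraries. The call was lost for HOXA minus HOXB with equal numbers of peaks (0.989 in place of 1.87 percentage points, adjusted exact p = 0.125) and for HOXC minus HOXD at a −log10 q of at least 5 (1.24 in place of 1.44, adjusted exact p = 0.0625). In peaks per 100 kb, 5 of the 6 pairs differed in all 6 libraries, each with an adjusted p of 0.0375 in the same exact test. The exception was HOXB minus HOXC, at 0.556 ± 0.456 peaks per 100 kb (SD, n = 6), higher in HOXB in 5 of 6 libraries with an adjusted exact p of 0.0938. HOXC minus HOXD, at 1.81 ± 0.819 peaks per 100 kb, had an adjusted exact p of 0.125 with equal numbers of peaks taken from each list and a difference then of 0.694.

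Set among windows of the same length across the genome that held at least 1 peak, HOXA stood near the top and HOXD within the bulk. A window of 130 kb held a median of 1.83 peaks (mean over the 6 libraries), and HOXA, with 11.8, held more than 99.9% of them. HOXB, with 10.5 peaks against a median of 2.83 for 210 kb, held more than 97.7% of windows. HOXC, with 5.33 against 1.83 for 120 kb, held more than 93.8%. HOXD held 3.17 peaks, more than 75.5% of windows of 120 kb, and covered more of its length than 64.8% of them. These are descriptions of the 4 windows, and neither gene density nor base composition of the other windows was matched.

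**Figure D2:**
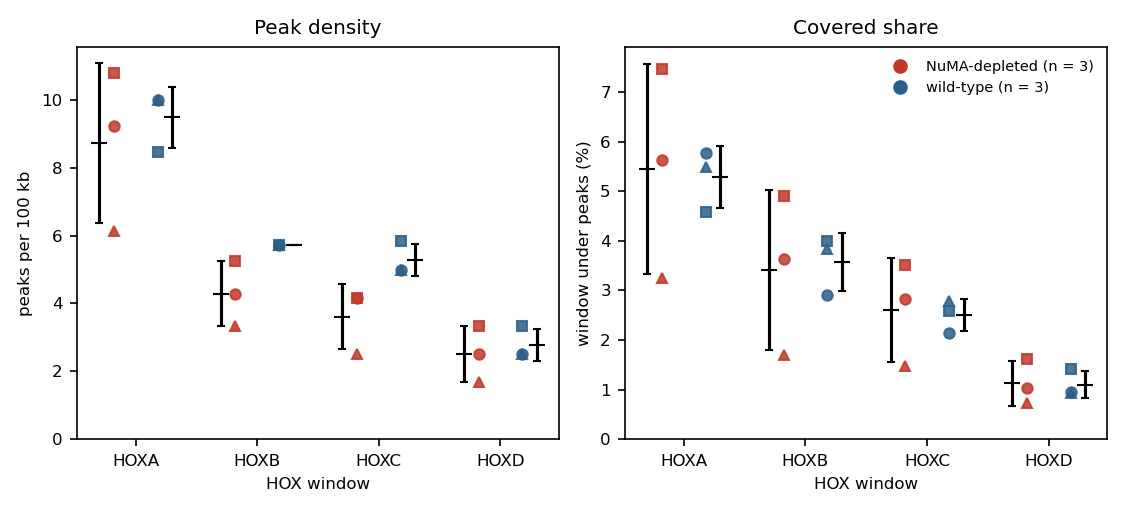
Peaks per 100 kb (left) and percent of the window under peaks (right) for each HOX cluster, 1 point per library (circle, square and triangle for replicates 1, 2 and 3) with the group mean and SD (n = 3) beside them. Both panels fall from HOXA to HOXD, the NuMA-depleted points spread more widely than the wild-type points in each cluster, and NuMA-depleted replicate 3 is the lowest in every cluster.

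HOXA was open along its window, in many sites of ordinary width. Of its 19 regions, 8 were called in all 6 libraries, 5 in 2 to 5 libraries and 6 in 1 library. In 4 equal parts of the window, from low to high coordinate, it held 2, 6, 8 and 3 regions. Over all lists together, its longest stretch with no called peak was 18.0 kb. Of the stretches between neighbouring regions in the genome, 47.7% were shorter (median 19.3 kb). Single libraries had longer stretches: in NuMA-depleted replicate 3 no peak was called between the regions at 65.6 and 94.0 kb. Sites called in all 6 libraries are termed shared regions here. Those of HOXA were 892 bp wide at the median, against 914 bp for the 17009 shared regions of the genome.

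The most firmly called site of all 4 clusters, by its weakest −log10 q over the libraries (14.5), lay 24.6 kb into HOXA (chr7:27154618-27155388, 771 bp). Its fold enrichment, the authors' ratio of the summit to the local background, was 7.95, 8.67 and 7.42 in NuMA-depleted replicates 1, 2 and 3 and 9.19, 7.14 and 8.69 in wild-type replicates 1, 2 and 3, so the groups overlapped. The widest HOXA region, 1256 bp, began 5.4 kb into the window (chr7:27135394-27136649) and had a weakest −log10 q of 13.3. In replicate order its folds were 9.12, 9.08 and 7.25 with NuMA depleted and 7.79, 10.7 and 9.53 in wild type, which also overlapped.

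Within HOXA the next by that measure, 60.0 kb into the window (chr7:27189967-27191099, 1133 bp), had folds of 5.58, 5.9 and 5.11 in NuMA-depleted and 7.03, 7.91 and 5.03 in wild-type libraries. Wild-type replicates 1 and 2 were above the NuMA-depleted range and wild-type replicate 3 below it. The stretch from 57.9 to 65.6 kb held 4 regions, of which 2 were called in all 6 libraries and 2 in a single wild-type library each. From 71.5 to 83.7 kb lay 5 regions, none in more than 2 libraries, with folds from 2.44 to 4.09; the lowest HOX fold of the 185 peaks was among them. The flanking regions at 65.6 and 94.0 kb were called in every library.

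HOXB was open in fewer sites than HOXA, and its shared sites were wide, most of them in one part of the window. Of its 10 regions, 5 were shared, and 4 of those 5 lay between 52.5 and 105 kb into the window; the fifth began at 123.4 kb. The shared HOXB regions had a median width of 1793 bp, from 1081 to 2574 bp. Over 1500 bp were 4 of the 5, and over all clusters 5 of the 17 shared HOX regions (29.4%), against 7.88% of shared regions in the genome.

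The widest HOX region of all lay 79.8 kb into HOXB (chr17:46679839-46682412, 2574 bp). Peaks covered 1750, 1909 and 962 bp of it in NuMA-depleted replicates 1, 2 and 3, and 922, 1522 and 1802 bp in wild-type replicates 1, 2 and 3. Both groups thus held libraries with a short and libraries with a long covered stretch. Its folds were modest: 7.05, 5.06 and 5.34 in NuMA-depleted and 6.08, 5.95 and 4.76 in wild-type libraries.

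At 62.5 kb (chr17:46662479-46663559, 1081 bp) the folds were 9.36, 6.99 and 4.94 in NuMA-depleted and 6.39, 8.66 and 7.62 in wild-type libraries. NuMA-depleted replicates gave both the highest and the lowest value. At 123.4 kb (chr17:46723427-46724971, 1545 bp) they were 9.24, 7.36 and 4.93 in NuMA-depleted and 8.02, 8.84 and 7.75 in wild-type libraries, and again NuMA-depleted replicates 1 and 3 were the extremes. At 87.7 kb (chr17:46687716-46689670, 1955 bp) all 6 folds were low, at 4.59, 3.99 and 4.83 in NuMA-depleted and 3.9, 4.49 and 4.11 in wild-type libraries, which overlapped. The rest of HOXB was sparse: it held the longest stretch between 2 regions of any HOX window, 49.2 kb (chr17:46756227-46805414), longer than 77.7% of such stretches in the genome, and another of 41.1 kb between the regions at 20.5 and 62.5 kb.

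HOXC held 2 shared regions, both wide, among 7. The wider began 58.6 kb into the window (chr12:54388572-54390287, 1716 bp) and the other 80.9 kb into it (chr12:54410942-54412375, 1434 bp). Folds at 58.6 kb were 4.57, 5.31 and 4.01 in NuMA-depleted and 4.47, 5.7 and 7.05 in wild-type libraries; wild-type replicates 2 and 3 were the highest, and replicate 1 lay within the NuMA-depleted range. Folds at 80.9 kb were 5.87, 7.51 and 4.7 in NuMA-depleted and 5.16, 6.72 and 5.36 in wild-type libraries, all within the NuMA-depleted range. The tail-acting end of the window, by the gene order above, held narrow sites at 2.2 kb (379 bp) and 16.7 kb (365 bp), followed by 41.5 kb with no peak in any library.

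HOXD was the least open cluster, with the fewest regions, and its sites were narrow. Its 2 shared regions were 763 bp wide at 22.0 kb (chr2:176962009-176962771) and 578 bp wide at 65.3 kb (chr2:177005268-177005845). Folds at 22.0 kb were 8.04, 9.0 and 6.61 in NuMA-depleted and 8.51, 10.8 and 8.05 in wild-type libraries, and included the highest HOX fold. Folds at 65.3 kb were 8.09, 5.92 and 5.23 in NuMA-depleted and 7.66, 7.72 and 7.23 in wild-type libraries. At both sites the groups overlapped through NuMA-depleted replicate 1 or 2. The last 54.2 kb of the window, toward the HOXD1 end of the gene order, held no called peak in any of the 6 libraries.

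**Figure D3:**
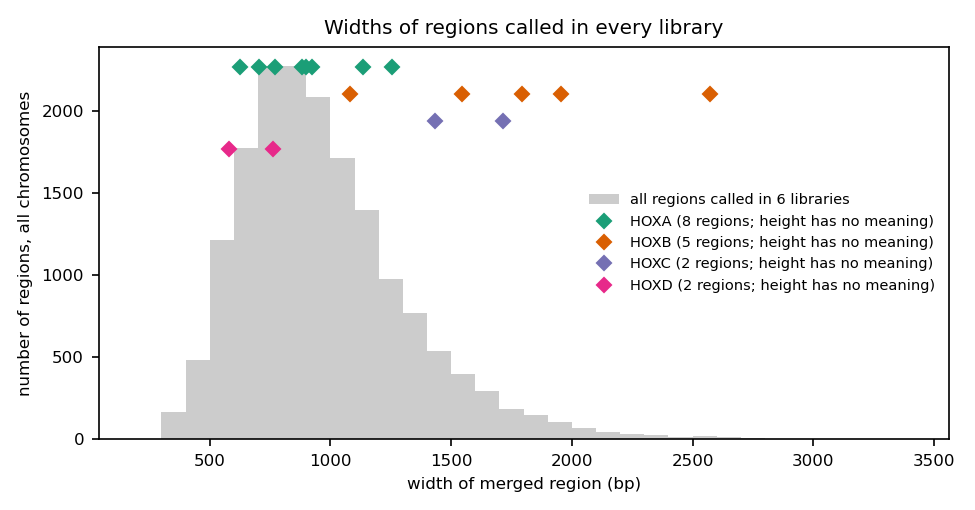
Widths in bp of the 17 HOX regions called in every library (diamonds, coloured by cluster, set at arbitrary heights) over the histogram of all 17009 such regions. The 5 HOXB diamonds run from 1081 to 2574 bp and both HOXC diamonds lie at 1434 and 1716 bp, whereas HOXA and HOXD lie near the bulk.

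The shared HOX sites ranked low by fold, in HOXC, HOXB and HOXA more than in HOXD. Ranked by fold among the 17009 shared regions of each library, the 17 HOX regions had a median percentile of 26.5, 13.1 and 20.2 in NuMA-depleted replicates 1, 2 and 3 and 37.5, 24 and 34.4 in wild-type replicates 1, 2 and 3, where all shared regions have 50. When each region was first given its median percentile over the 6 libraries, the median over regions was 16.7, with HOXC at 8.81, HOXB at 15.6, HOXA at 25.8 and HOXD at 47.8. The lowest was the region 87.7 kb into HOXB, at a median percentile of 1.6, and the highest the region 5.4 kb into HOXA, at 67.5. The median over regions of the mean fold was 6.14 for HOX, against 7.9 for all shared regions. Among shared regions over 1000 bp wide, the 9 HOX regions had a median percentile of 15.6, against 47.1 for all 6723.

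The fold is a ratio to the local background, and that background was higher in HOXA, HOXB and HOXC than over all peaks in each of the 6 libraries. Recovered from fold and p, the background at the summit had a median of 3.91 to 6.27 fragments over the HOXB peaks of the 6 libraries, 2.87 to 5.98 over HOXC and 2.45 to 3.94 over HOXA, against 1.88 to 3.09 over all peaks. HOXD peaks were at 1.49 to 2.83. The summit pileups of shared HOXB regions had medians of 46, 52 and 23 fragments in NuMA-depleted replicates 1, 2 and 3 and 32, 38 and 28 in wild-type replicates 1, 2 and 3, where all shared regions had 33, 45 and 22, and 27, 31 and 27. Those of HOXA were below all shared regions in each library, at 26.5, 28.5 and 17 and at 24, 25 and 22 fragments. The part of the local background in the low ranks was not tested.

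No HOX region was called throughout one group and nowhere in the other. Of the 42 regions, 0 were called in all 3 NuMA-depleted and no wild-type library, where 0.625% of the genome's regions were, and 0 in all 3 wild-type and no NuMA-depleted library, where 0.592% were. In all 6 libraries 17 regions were called (40.5%, against 28.9% of regions in the genome), and 9 in a single library (21.4%, against 25.1%). The shared count was 8 of 19 in HOXA, 5 of 10 in HOXB, 2 of 7 in HOXC and 2 of 6 in HOXD. HOXB had no region called in a single library, HOXA had 6. With 3 libraries against 3, presence of a single region cannot be shown to differ.

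Absence from NuMA-depleted replicate 3 alone, the shortest list, was found for 6 regions (14.3%, against 8.69% in the genome): 33.5 and 89.3 kb into HOXA, 148.8, 155.5 and 205.4 kb into HOXB, and 2.2 kb into HOXC. The last of these had folds of 10.5 and 8.49 in NuMA-depleted replicates 1 and 2 and 8.64, 9.63 and 8.31 in wild-type replicates 1, 2 and 3. One region, 96.5 kb into HOXC (chr12:54426464-54427680), was missing from wild-type replicate 1 alone. Without NuMA-depleted replicate 3, the regions called in every remaining library numbered 23 in place of 17, while over the genome they numbered 22131 in place of 17009.

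In 3 regions, named after their values were seen, the number of libraries with a call differed by 2 between the groups. The share of the genome's regions with such a difference was not counted, so these 3 are listed as a description only. One, 4.5 kb into HOXD (chr2:176944504-176944862), was called in NuMA-depleted replicates 1 and 2, with folds of 7.36 and 5.22 on 15 and 14 fragments, and in no wild-type library. Another, 83.7 kb into HOXA (chr7:27213743-27214119), was called in wild-type replicates 1 and 3, with folds of 4.09 and 3.38, and in no NuMA-depleted library. The region 16.7 kb into HOXC (chr12:54346748-54347112) was called in NuMA-depleted replicate 1, with a fold of 5.12, and in wild-type replicates 1, 2 and 3, with folds of 5.45, 4.78 and 5.46.

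HOXB and HOXC were called as fewer peaks in every NuMA-depleted library than in any wild-type library, while the covered length overlapped. HOXB had 9, 11 and 7 peaks in NuMA-depleted replicates 1, 2 and 3 and 12 in each wild-type replicate (9 ± 2 against 12 ± 0, SD, n = 3; exact permutation test, two-sided, p = 0.1, adjusted over the 4 clusters 0.2). HOXC had 5, 5 and 3 peaks against 6, 7 and 6 (4.33 ± 1.15 against 6.33 ± 0.577, SD, n = 3; exact p = 0.1, adjusted 0.2). The smallest p that 3 libraries against 3 can give is 0.1, so neither could pass 0.05. Without NuMA-depleted replicate 3, the differences were −2 peaks in place of −3 in HOXB and −1.33 in place of −2 in HOXC. Across the genome, in windows with a mean of at least 3 peaks, such a separation was found in 0.754% of windows of the length of HOXB and in 0.566% of windows of the length of HOXC. These windows were not matched in peak number to HOXB (mean of 10.5 over the libraries) or HOXC (5.33), so the shares are not those of like windows.

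HOXA and HOXD did not separate by peak number. HOXA had 12, 14 and 8 peaks in NuMA-depleted and 13, 11 and 13 in wild-type libraries (exact p = 0.8), where the matching separation was found in 0.771% of windows of its length. HOXD had 3, 4 and 2 against 3, 4 and 3 (exact p = 1). The covered length differed by less than the spread in all 4 clusters, with exact p from 0.8 to 0.9; in HOXB it was 7643, 10303 and 3566 bp in NuMA-depleted and 6087, 8383 and 8040 bp in wild-type libraries.

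The median width of the peaks called in HOXC and HOXD was larger in each NuMA-depleted library than in each wild-type library. The median HOXC peak was 796, 971 and 637 bp wide in NuMA-depleted and 225, 322 and 441 bp in wild-type libraries (801 ± 167 against 329 ± 108 bp, SD, n = 3; exact permutation p = 0.1, adjusted 0.2). The median HOXD peak was 396, 446 and 438 bp against 360, 392 and 355 bp (427 ± 26.9 against 369 ± 19.8 bp; exact p = 0.1, adjusted 0.2). Such a separation was found in 7.66% of windows of 120 kb. The medians overlapped in HOXA (exact p = 0.7) and HOXB (exact p = 0.3), where 7.39% and 7.61% of windows of their lengths separated. A median also depends on which peaks were called. The length under peaks overlapped between the groups at each shared region of HOXC and HOXD. At 58.6 kb into HOXC it was 1085, 1340 and 645 bp in NuMA-depleted and 701, 994 and 819 bp in wild-type libraries. At 80.9 kb it was 796, 971 and 637 against 1420, 909 and 1083 bp. At 22.0 kb into HOXD it was 496, 708 and 618 against 468, 716 and 500 bp. At 65.3 kb it was 396, 533 and 258 against 360, 543 and 355 bp.

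Peak number combines how many regions were called and how often a region was broken into several peaks, and over called regions neither separated the groups in HOXB or HOXC. Counted as regions, HOXB had 8, 10 and 5 in NuMA-depleted and 9 in each wild-type library (exact permutation p = 0.7), and HOXC had 5, 5 and 3 against 4, 6 and 6 (exact p = 0.5). Peaks per called region were 1.12, 1.1 and 1.4 against 1.33 in each wild-type library in HOXB, and 1 in each NuMA-depleted library against 1.5, 1.17 and 1 in HOXC (exact p = 0.4 for both). NuMA-depleted replicate 3, with the fewest HOXB peaks, thus had the fewest regions and the most peaks per region. Of the 17 shared HOX regions, 1, 1 and 2 were called as more than 1 peak in NuMA-depleted replicates 1, 2 and 3, and 4, 4 and 3 in wild-type replicates 1, 2 and 3, which did not overlap (exact permutation p = 0.1). Among all shared regions of the genome the split share was 2.35%, 0.753% and 1.79% against 3.12%, 3.6% and 2.15%, and the groups overlapped (exact p = 0.2). Among the genome's shared regions over 1000 bp wide it was 5.85%, 1.9% and 4.48% against 7.69%, 8.79% and 5.31%. There the groups overlapped as well (exact permutation p = 0.2). All 5 of the split HOX regions were over 1500 bp wide.

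The region 87.7 kb into HOXB was split with gaps of 229, 196 and 828 bp in wild-type replicates 1, 2 and 3, and in NuMA-depleted replicate 2 with a gap of 304 bp. The region 58.6 kb into HOXC was split into 3 peaks in wild-type replicate 1, with gaps of 312 and 438 bp, and into 2 in wild-type replicate 2, with a gap of 511 bp. In the NuMA-depleted libraries it was a single peak each time. The region 79.8 kb into HOXB was split in 5 of 6 libraries, NuMA-depleted replicate 2 being the exception.

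Some gaps of the wild-type lists were shorter than any in the list of NuMA-depleted replicate 2. Of the 12 gaps inside shared HOX regions of the wild-type lists, 4 were under 265 bp, the shortest gap in that list; of the 4 gaps in the NuMA-depleted lists, 0 were. When all lists were given common limits on width and gap, an alternative chosen after seeing the data, the groups overlapped: 1, 1 and 2 split regions in each group, 9, 11 and 7 against 10, 10 and 10 HOXB peaks, and 4, 5 and 3 against 2, 5 and 6 HOXC peaks. The limits were those of NuMA-depleted replicate 2, so its list kept all 45892 peaks by construction. In HOXB the overlap came from that library alone. Under these limits, the HOXC and HOXD medians also changed. The median HOXC widths differed by 294 bp in place of 472 bp (exact permutation p = 0.2), and the median HOXD widths by 14.3 bp in place of 57.8 bp (exact p = 0.8). With equal numbers of peaks from each list the groups overlapped as well, at 6, 6 and 7 against 7, 6 and 7 HOXB peaks and 2, 3 and 3 against 2, 3 and 3 HOXC peaks. The median HOXC widths were then 539, 971 and 637 bp against 826, 325 and 819 bp, a difference of 59 bp (exact permutation p = 0.8).

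**Figure D4:**
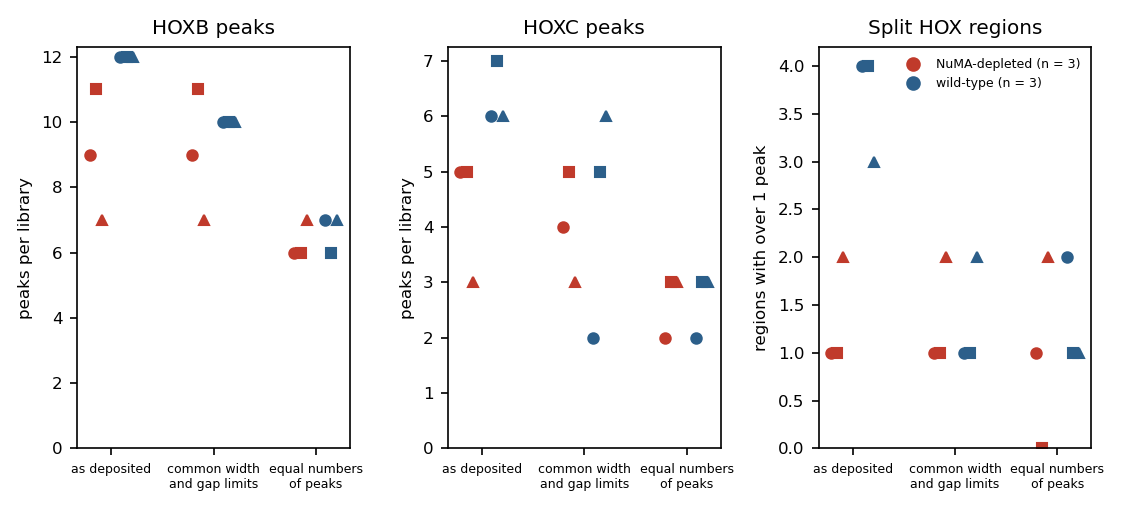
HOXB peaks, HOXC peaks and split HOX regions per library (circle, square and triangle for replicates 1, 2 and 3; red NuMA-depleted, blue wild-type, n = 3 each) from the deposited lists, under common width and gap limits, and with equal numbers of peaks. The colours separate in the first position of each panel and overlap in the other positions.

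How strongly the shared sites stood out in each library did not separate the groups. The fold of each shared region was ranked within its library and turned into a normal score (a rank expressed in SD of a normal distribution), and the scores were compared with limma over all 17009 shared regions. Of the 17 HOX regions, 0 passed an adjusted p of 0.05 and 0 had an unadjusted p under 0.05 (limma, Benjamini-Hochberg), where 0.00588% and 8.1% of all shared regions did. Relative to wild type, 6 HOX regions were estimated higher and 11 lower in NuMA-depleted libraries, with a median difference of −0.14, against a median of 0 over all. Nor did any of the 17 have all 3 NuMA-depleted ranks below all 3 wild-type ranks (6.21% of shared regions) or above them (6.75%).

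The largest estimated difference was −0.62 ± 0.44 (SE) for the region 94.0 kb into HOXA (chr7:27224021-27224920), with an adjusted p of 0.77 in limma. Its folds were 3.6, 4.77 and 5.69 in NuMA-depleted and 6.72, 6.09 and 5.21 in wild-type libraries, and NuMA-depleted replicate 3 lay above wild-type replicate 3. The region 109.8 kb into HOXA (chr7:27239797-27240421) was next, at −0.55 ± 0.42 (SE, limma adjusted p = 0.792), with folds of 6.79, 5.2 and 4.41 against 7.67, 7.95 and 4.85. In HOXB the smallest p belonged to the regions at 87.7 kb (0.44 ± 0.36, limma adjusted p = 0.824) and 123.4 kb (−0.35 ± 0.43, adjusted p = 0.899).

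In HOXC the region at 58.6 kb was estimated at −0.53 ± 0.38 (SE, limma adjusted p = 0.779) and that at 80.9 kb at 0.31 ± 0.38 (adjusted p = 0.901). In HOXD the region at 65.3 kb was at −0.39 ± 0.41 (SE, limma adjusted p = 0.871) and that at 22.0 kb at −0.32 ± 0.43 (adjusted p = 0.916). Each of these estimates was under 2 standard errors, so differences of that size were not detectable with 3 libraries a group, and their absence was not shown.

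**Figure D5:**
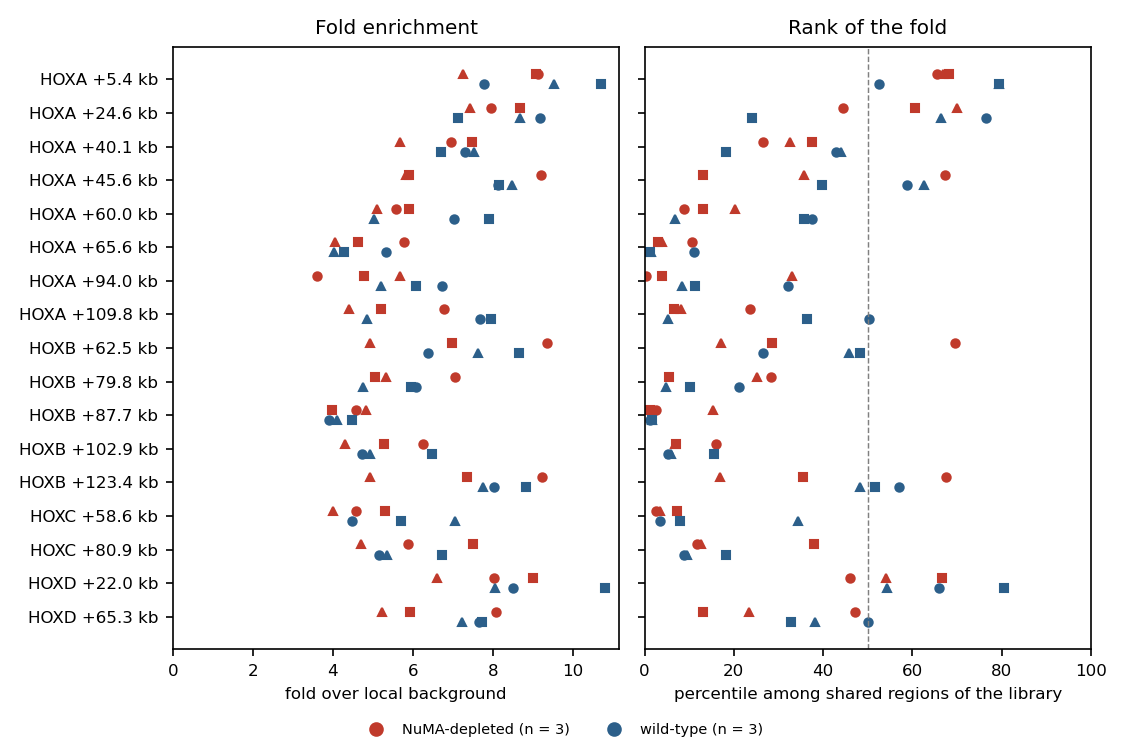
Fold enrichment (left) and the percentile of that fold among all shared regions of the library (right, dashed line at 50) for the 17 HOX regions called in every library, named by distance from the window start, with 1 point per library (circle, square and triangle for replicates 1, 2 and 3). Red and blue points overlap in the right panel at all 17 regions, and most points lie left of the dashed line.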

How the data were processed

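ATAC-seq peak lists of 3 NuMA-depleted and 3 wild-type HCT116 libraries were used, grouped by the genotype label. The tools named are Trim Galore, Picard and Bowtie2 (version 2.4.1), and the build is hg19, per the submitters' processing notes. The peak names record a macs2 folder, per the deposited lists. Not given in the sources used here are the caller's version and settings, a transposase read shift and a screen for artefact-prone regions. Each list belongs to 1 library. The authors deposited, for every peak, its interval and summit, a fold over local background (a linear ratio), −log10 p and −log10 q values, and a score; the deposited score was not used. The largest q in the deposited lists was 0.01.

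Depth in reads is unknown. The fragment pileup and background at each summit were recovered from fold and p under a Poisson model; a whole pileup, within 0.01 of −log10 p, was found for 99.986% to 99.994% of peaks. Relative depth assumes that the smallest peak width equals the fragment length used by the caller.

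Peaks of the 6 lists that shared 1 bp or more were joined, and each resulting region was scored as called or not in each library. Cluster values per library were compared between groups with an exact permutation test (20 assignments, smallest p 0.1) and between clusters with an exact sign-flip test (64 assignments, smallest p 0.03125), all two-sided, with Benjamini-Hochberg adjustment. Genome windows for the group comparison held a mean of at least 3 peaks. The fold of the strongest peak per shared region was ranked per library, turned into normal scores and tested with limma 3.58.1 (mean trend; R 4.3.3), adjusted over all 17009 regions, threshold 0.05; the procedure was tested on simulated data. Python 3.11.15, numpy 2.4.6, pandas 2.3.3 and scipy 1.17.1 were used.

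Regions named were, per cluster, the 3 shared regions with the highest weakest −log10 q, the widest region, any region called in 1 group alone and the 2 shared regions with the smallest limma p. Members, lists and tests were chosen with earlier results of these data known. The alternatives tried were equal numbers of peaks, a −log10 q minimum of 5, placement by summit, presence in 2 of 3 libraries, other scales of the fold, each library left out and a replicate block; common width and gap limits and ranked pileups were added after seeing the data. HOX cofactor genes and cell type markers were not analysed here, since they need an hg19 annotation.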

Additional observations from a re-analysis of the deposited data

How the results depend on the processing

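The order HOXA, HOXB, HOXC, HOXD in mean peaks per 100 kb and covered share kept its direction under every alternative run. Leaving out 1 library ends each call between clusters by construction, as 5 libraries cannot go below an exact p of 0.0625. In peaks per 100 kb the differences then ran from 3.82 to 4.37 (HOXA minus HOXB), 4.27 to 5.06 (HOXA minus HOXC), 6.26 to 6.86 (HOXA minus HOXD), 2.19 to 2.5 (HOXB minus HOXD) and 1.67 to 2.0 (HOXC minus HOXD). In covered percentage points they ran, for the same pairs, from 1.67 to 2.13, 2.59 to 3.02, 3.94 to 4.6, 2.2 to 2.67 and 1.35 to 1.58, and from 0.845 to 1.08 for HOXB minus HOXC. With a −log10 q of at least 5, HOXB minus HOXC rose to 0.774 peaks per 100 kb and passed the threshold, while HOXC minus HOXD no longer did (1.25 peaks per 100 kb and 1.24 percentage points). With equal numbers of peaks, HOXB minus HOXC passed at 0.873, and HOXC minus HOXD (0.694) and HOXA minus HOXB in covered share (0.989) did not. The cause was not tested.

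Differences between groups that were within the spread also changed sign (NuMA-depleted minus wild-type). Peaks turned to 0.333 more in both HOXA and HOXD under common width and gap limits, and without 1 library ranged from −2.33 to 0.667 and from −0.833 to 0.167. Covered length turned to −678 bp in HOXA and −48.7 bp in HOXC at that −log10 q minimum, and to −1079 bp in HOXA, 504 bp in HOXB and −155 bp in HOXD with equal numbers. Without 1 library it ranged from −1102 to 1641 bp (HOXA), −1899 to 1470 bp (HOXB), −425 to 802 bp (HOXC) and −262 to 270 bp (HOXD), and the HOXA width from −21.2 to 74.3 bp. The cause was not tested.

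With equal numbers of peaks, 9 HOX regions were shared and 1 was specific to wild type, with fewer peaks entering by construction. Counting presence in 2 of 3 libraries as called gave 1 region specific to each group, and leaving out 1 library gave 0 to 1 for each. For none of these alternative HOX counts was the share over the genome counted. In limma, the 1 genome call became 2 on log2 fold, 55 on −log10 p, 0 at a −log10 q of at least 5, 247 on pileup and 0 to 1 without 1 library. HOX regions called stayed at 0 in all of these, with smallest adjusted p from 0.219 to 0.836. At an unadjusted limma p under 0.05 the largest HOX count was 2, on pileup (of 17) and without NuMA-depleted replicate 3 (of 23). Over the genome, 2194 of 17005 and 1873 of 22131 regions passed in the same 2 settings. The region 65.3 kb into HOXD turned from −0.39 to 0.01 on pileup.

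Replicate numbers did not pair the samples: deviations of same-numbered libraries correlated at −0.029, −0.015 and −0.019 over 17009 regions. A replicate block left the limma calls at 1 in the genome and 0 in HOX, and the mean differences in peaks at −1 (HOXA), −3 (HOXB), −2 (HOXC) and −0.333 (HOXD), with a smallest possible exact p of 0.25. The number of libraries and pileups of 8 to 67 fragments at HOX summits limit what could be detected.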
